A study of Mus musculus with 6 samples.

Results

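The liver makes fatty acids from carbohydrate carbon and joins them to glycerol as triglyceride (TG), and 36 genes of this route were followed in livers of *Mttp-IKO* and control mice after a diet without methionine and choline (MCD). The members were taken by gene symbol for their role in the route, though earlier results of these data were known at that time. All 36 were found among the 41388 genes of the deposited files. RNA-Seq was done on 3 pools of liver RNA per genotype, each pool holding RNA of 3 to 4 mice by the study's methods; the series' description names 12 livers without saying whether this is per genotype. All mice were C57BL/6 and carried floxed alleles of *Mttp* together with Villin Cre ERT2, a Cre recombinase that is driven by a promoter of the gut epithelium and becomes active with tamoxifen. *Mttp-IKO* mice had received tamoxifen (50 μg per g body weight per day for 5 days), and their littermates had received vehicle. The labels call these vehicle-treated littermates wild type, and they are named WT here. The mice were male by the study's account and 12 to 16 weeks old, and from 3 weeks after the injections both groups ate the MCD diet for 3 weeks. Livers were taken after a fast of 4 h by the series' description, or 4 to 6 h by the study's methods. MTTP loads lipid onto chylomicrons in the enterocyte, so the deletion blocks the packaging of dietary fat in the gut, while hepatocytes keep the gene.

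In de novo lipogenesis, citrate leaves the mitochondrion and is split into acetyl-CoA, acetyl-CoA carboxylase makes malonyl-CoA, and fatty acid synthase builds palmitate. Elongases and desaturases then lengthen the chain and add double bonds, acyl-CoA synthetases activate it, and a series of acyltransferases and a phosphatase builds phosphatidic acid, diglyceride and TG. In liver the transcription of these genes is known to follow insulin through SREBP-1c and glucose through ChREBP.

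The pools held 25271585 to 36238734 reads on genes. Liver *Mttp* itself, whose deletion is confined to the gut and which therefore checks no label here, was at 90.4, 186 and 175 CPM in WT pools and 145, 129 and 161 CPM in *Mttp-IKO*. CPM is the read count relative to the pool's total, scaled by TMM factors (the trimmed mean of M values, edgeR). The tissue label could be checked with 10 hepatocyte markers, albumin among them, whose summed level was 66030 to 102500 CPM in WT pools and 130200 to 177600 CPM in *Mttp-IKO*; 9 of the 10 had a log2 fold change above 0 and 0 passed an adjusted p of 0.05 (edgeR). Stellate cell markers summed to 971 to 1784 CPM in WT and 502 to 576 CPM in *Mttp-IKO*, and macrophage and Kupffer cell markers to 699 to 1447 and 460 to 584 CPM. *Gpnmb* was the largest term of the latter sum in each WT pool, at 543, 173 and 593 CPM. Of these 12 markers, 10 had log2 fold changes below 0 and 2 above 0. The 2 were the Kupffer cell marker *Timd4*, at 1.165 (edgeR adjusted p = 0.0425), and *Vsig4*, at 0.12. Adipocyte markers summed to 105 to 169 CPM in WT and 74.8 to 133 CPM in *Mttp-IKO*, with at most 1 read of *Lep* in any pool. WT pool 2 stood out with 55 reads of *Adipoq* (0 to 4 elsewhere), 592 of *Cfd* (0 to 35), 196 of *Slc2a4* (0 to 52), 67 of *Plin1* (0 to 7) and 33 of *Retn* (0 to 6). *Fabp4* and *Cidec* were instead lowest in WT pool 2 among the WT pools, and *Adrb3* and *Lipe* did not set it apart. Striated muscle markers summed to 122 CPM in WT pool 1 and 912 CPM in WT pool 2, against at most 0.967 CPM in each other pool. In bulk liver, fewer cells of a type and less RNA per cell cannot be told apart, and the part of these shifts in cell markers in the results below was not tested.

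The lipogenic genes stood mostly higher in *Mttp-IKO* livers, but with 3 pools per genotype no single member passed the edgeR test over all genes, where DESeq2 called 11. Of the 36 members, 35 had enough reads to be tested, 27 with a log2 fold change (*Mttp-IKO* over WT) above 0 and 8 below 0, against 50.5% above and 49.5% below 0 over the 17287 genes tested. The median log2 fold change of the 35 was 0.47, beside 0.0057 over all genes tested and 0.60 for the hepatocyte markers. Among the members, 11 lay above that hepatocyte median and 24 below it. Scaling by total counts in place of TMM moved the median of all genes by -0.18 on the log2 scale, and 25 members then lay above 0 and 10 below, with a median of 0.29.

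At an adjusted p under 0.05 (edgeR quasi-likelihood test, Benjamini-Hochberg over all genes tested), 0 members were called, where 4.01% of all genes were (0.920% higher and 3.09% lower in *Mttp-IKO*). Standard errors (SE) given with the log2 fold changes are approximate. The lowest adjusted p among the members was 0.0547 for *Mogat2*. At an unadjusted p under 0.05, 16 members were higher and 2 were lower, against 9.53% and 13.5% of all genes. DESeq2 called 10 members higher and 1 lower, where it called 3.81% and 7.75% of genes, and limma-voom called 0 members, where it called 2.48% of genes (0.671% higher and 1.80% lower). In 14 members every *Mttp-IKO* pool exceeded every WT pool and in 3 every one lay below, against 14.5% and 16.5% of all genes (31.0% in either direction). The plot of fold changes by step places these members along the pathway.

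**Figure D1:**
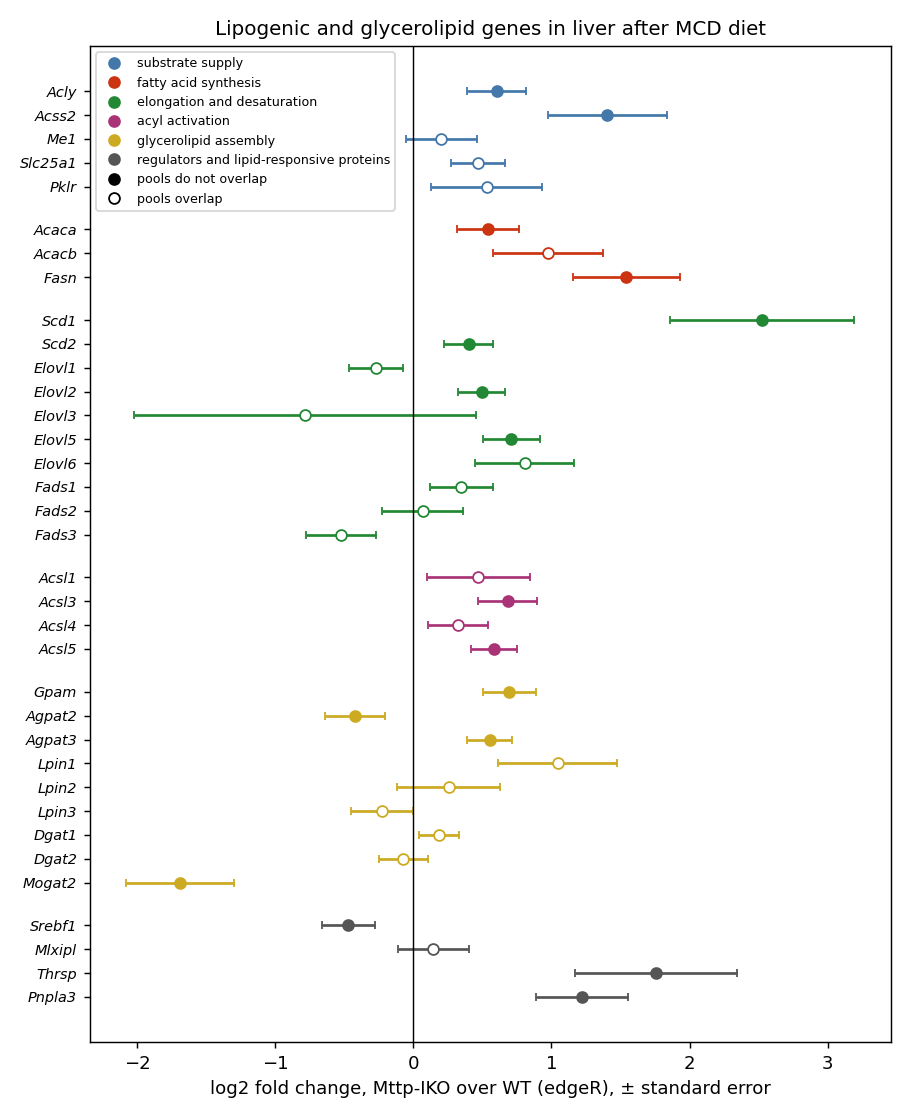
Log2 fold change of the 35 tested members, *Mttp-IKO* over WT, from edgeR (x axis), with the approximate standard error as bars; genes are on the y axis, coloured by step, and filled points mark genes whose pools do not overlap between genotypes. *Scd1*, *Thrsp*, *Fasn*, *Acss2* and *Pnpla3* lie furthest to the right, from 2.52 down to 1.22, and *Mogat2* furthest to the left at -1.69.

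Of the 5 members with the largest positive log2 fold changes, *Scd1*, *Thrsp*, *Fasn*, *Acss2* and *Pnpla3*, the last 4 have a promoter window in the RefSeq table for GRCm38.p6, and their 250 bases before the start are shown because the genes moved the same way. Capitals mark CCAAT or its reverse complement ATTGG, the letters bound by the factor NF-Y, a known partner of SREBP at lipogenic promoters. For a gene with several windows, the one shown was taken from those that hold CCAAT, so its match was fixed by that choice. Of the other members, 25 had a window too, and *Scd1*, *Scd2*, *Elovl3*, *Fads1*, *Dgat1*, *Dgat2* and *Mogat2* had none. The RefSeq start of *Pnpla3* equals the gene's start in the count files, that of *Fasn* lies 369 bases before it, and those of *Acss2* and *Thrsp* lie 95 and 180 bases inside the gene.
Fasn, chr11:120824548-120824797, minus strand: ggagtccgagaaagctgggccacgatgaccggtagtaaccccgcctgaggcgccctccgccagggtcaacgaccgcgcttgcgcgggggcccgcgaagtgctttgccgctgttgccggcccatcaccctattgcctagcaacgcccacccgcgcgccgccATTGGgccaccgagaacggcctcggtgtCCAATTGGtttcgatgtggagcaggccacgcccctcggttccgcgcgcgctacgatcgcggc
Acss2, chr2:155517793-155518042, plus strand: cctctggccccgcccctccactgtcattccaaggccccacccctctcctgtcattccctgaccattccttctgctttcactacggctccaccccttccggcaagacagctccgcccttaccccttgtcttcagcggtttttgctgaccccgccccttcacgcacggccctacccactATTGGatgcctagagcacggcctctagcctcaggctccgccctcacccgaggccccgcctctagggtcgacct
Thrsp, chr7:97417551-97417800, minus strand: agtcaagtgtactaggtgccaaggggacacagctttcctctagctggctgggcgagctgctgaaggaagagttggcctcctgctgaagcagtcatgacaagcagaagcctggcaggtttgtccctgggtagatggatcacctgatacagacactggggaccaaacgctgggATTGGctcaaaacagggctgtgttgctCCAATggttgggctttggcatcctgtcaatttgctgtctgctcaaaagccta
Pnpla3, chr15:84167566-84167815, plus strand: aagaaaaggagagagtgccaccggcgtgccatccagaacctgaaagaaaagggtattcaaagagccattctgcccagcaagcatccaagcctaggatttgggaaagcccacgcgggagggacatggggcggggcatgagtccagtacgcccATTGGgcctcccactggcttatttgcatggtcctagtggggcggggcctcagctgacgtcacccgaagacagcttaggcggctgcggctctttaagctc

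Searched on both strands in the same 250 bases, CCAAT was found in 18 of the 29 members with a window and in 37.5% of the 27025 genes in the table, counting a gene when any of its windows held it. Of these 18 members, *Elovl1*, *Fads3* and *Srebf1* had log2 fold changes below 0 and the others above 0. Among the tested members with a window but no CCAAT, *Agpat2* and *Lpin3* were below 0 and the others above 0 as well. The *Fasn* window held 3 matches, of which the last 2 overlap, and that of *Thrsp* held 2. The GC box GGGCGG, which can overlap other GC-rich motifs, was also found in 18 of 29 members and in 35.4% of genes. The E-box CACGTG was found in 4 members (*Slc25a1*, *Elovl5*, *Lpin2* and *Mlxipl*) and 6.86% of genes. A core of the sterol regulatory element, TCACNCCAC, was found in *Acsl1* and *Mlxipl* and in 1.22% of genes. Of the 29 members, 19 had 1 window and 10 had several. These are matches of letters, and binding was not measured.

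Among the genes of substrate supply, which bring carbon and NADPH to fatty acid synthesis, all 5 had log2 fold changes above 0, from 0.20 to 1.404 with a median of 0.53. At an unadjusted p under 0.05, 3 of 5 were higher, against 9.53% of all genes. In 2 all *Mttp-IKO* pools lay above the WT pools, against 14.5% of all genes. *Acss2* (ENSMUSG00000027605, chromosome 2, 155517948 to 155585724), the cytosolic enzyme that turns acetate into acetyl-CoA, was at 22.0, 54.9 and 42.2 CPM in WT pools and at 56.3, 99.5 and 159.7 CPM in *Mttp-IKO*. The lowest *Mttp-IKO* pool stood only just above the highest WT pool, and the pools within each genotype were far apart. Its log2 fold change was 1.404 (SE 0.429, edgeR adjusted p = 0.107). In the GENCODE M21 annotation, 9.12% of its exon bases are shared with genes on the other strand, and whether the counting used strand is not stated.

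*Acly* (ENSMUSG00000020917, chromosome 11, 100476353 to 100528000), which splits citrate in the cytosol, was at 142, 224 and 206 CPM in WT and 273, 326 and 269 CPM in *Mttp-IKO*. Every *Mttp-IKO* pool was above every WT pool, and the log2 fold change was 0.60 (SE 0.211, edgeR adjusted p = 0.145). *Slc25a1*, the mitochondrial citrate carrier, was at 160.1, 183 and 166 CPM in WT and 254, 269 and 181 CPM in *Mttp-IKO*. Pool 3 of *Mttp-IKO* was the one that overlapped, and without it the log2 fold change of *Slc25a1* was 0.63 with an adjusted p of 0.0396 (edgeR), against 0.47 and 0.199 with all pools; without *Mttp-IKO* pool 2 it was 0.36, and the adjusted p over the pools left out ran up to 0.508.

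The pools of the other 2 genes of this step overlapped. *Me1*, the cytosolic malic enzyme that yields NADPH, was at 81.9, 109 and 91.8 CPM in WT and 89.7, 82.8 and 153 CPM in *Mttp-IKO*, and its log2 fold change of 0.20 became -0.13 without *Mttp-IKO* pool 3. *Pklr*, the liver pyruvate kinase and a classical ChREBP target, was at 123, 397 and 285 CPM in WT and 369, 504 and 290.5 CPM in *Mttp-IKO* (log2 fold change 0.53, SE 0.403, edgeR adjusted p = 0.468). WT pool 1 was the low one here, and without it the log2 fold change was 0.17. Of the exon bases of *Pklr*, 22% are shared with *Hcn3* on the other strand.

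The *Pklr* promoter is shown because it was the one member window with a match to CACGNG and CNCNTG placed 5 bases apart, the pattern of a carbohydrate response element, which 0.189% of genes in the table held. Capitals mark the match, and the RefSeq start lies 481 bases inside the gene as the count files give it.
Pklr, chr3:89136373-89136622, plus strand: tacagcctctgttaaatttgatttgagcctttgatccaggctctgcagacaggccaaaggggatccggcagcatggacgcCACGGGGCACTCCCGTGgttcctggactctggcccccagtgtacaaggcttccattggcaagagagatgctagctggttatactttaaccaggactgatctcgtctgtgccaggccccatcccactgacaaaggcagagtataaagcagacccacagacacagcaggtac

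In fatty acid synthesis proper, all 3 genes had log2 fold changes above 0 and an unadjusted p under 0.05, with a median of 0.98. Over all genes, 9.53% were higher at that p. *Fasn* (ENSMUSG00000025153, chromosome 11, 120805940 to 120824178), the synthase that builds palmitate and whose promoter is given above, was at 277, 666 and 428 CPM in WT pools. In *Mttp-IKO* pools it was at 1111, 1928 and 952 CPM, so that every *Mttp-IKO* pool lay well above the highest WT pool. The fitted ratio was 2.91-fold (log2 fold change 1.54, SE 0.385, edgeR adjusted p = 0.0673). DESeq2 gave an adjusted p of 0.000844 and limma-voom 0.0697, and without WT pool 2, the highest WT pool, the edgeR adjusted p was 0.0444. Over all pools left out in turn its log2 fold change ran from 1.17, without *Mttp-IKO* pool 2, to 1.90, with edgeR adjusted p up to 0.244.

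*Acaca* and *Acacb* encode the acetyl-CoA carboxylases, the first cytosolic and the source of malonyl-CoA for synthesis, the second at the mitochondrial surface, where malonyl-CoA restrains fatty acid oxidation. *Acaca* (chromosome 11, 84129672 to 84401651) was at 151, 266 and 214 CPM in WT and at 309, 311 and 299 CPM in *Mttp-IKO*. The *Mttp-IKO* pools were nearly level and above all WT pools (log2 fold change 0.54, SE 0.222, edgeR adjusted p = 0.198). *Acacb* was at 114, 217 and 179 CPM in WT and 197, 263 and 542 CPM in *Mttp-IKO*. Most of its log2 fold change of 0.98 came with *Mttp-IKO* pool 3, and without that pool it was 0.44 (adjusted p = 0.193 with all pools, edgeR).

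**Figure D2:**
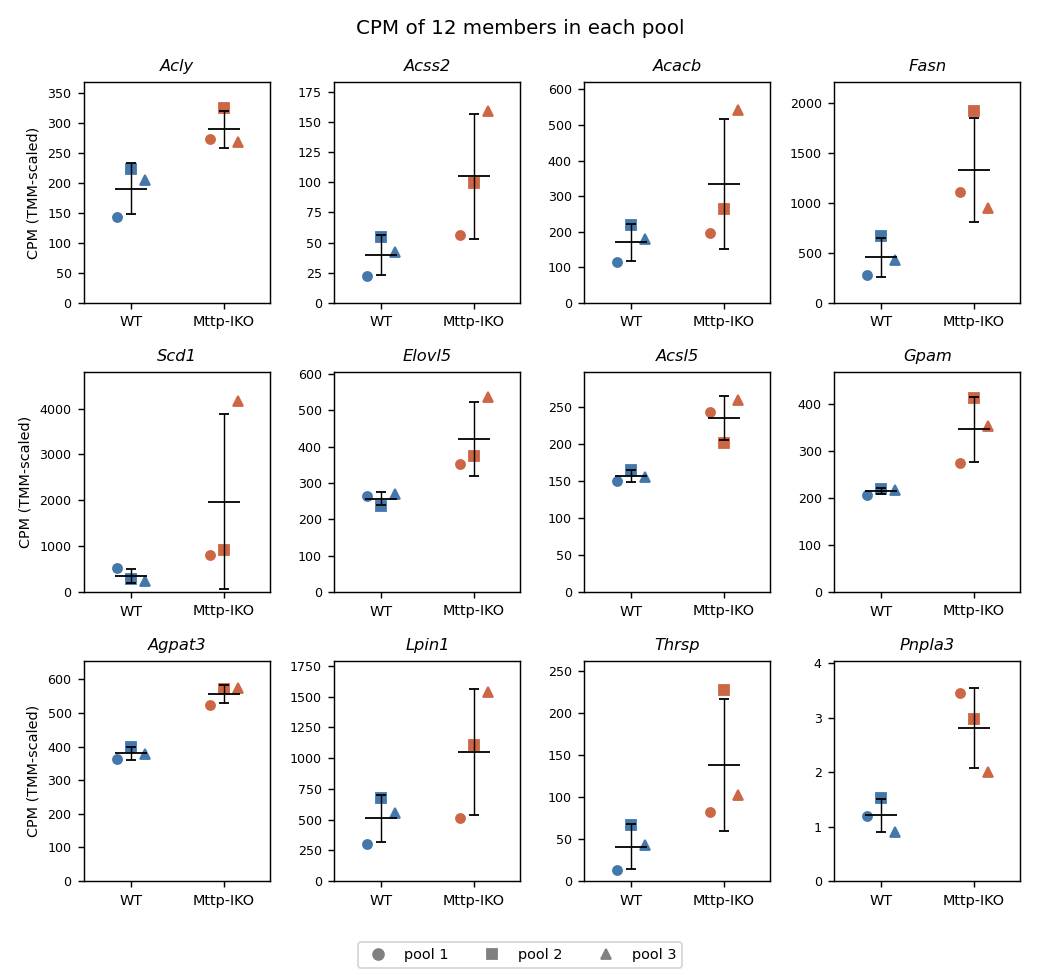
CPM (y axis, linear from 0, TMM-scaled) of 12 members in each WT pool (blue) and *Mttp-IKO* pool (orange), with symbols for the pool number and black bars for the mean ± SD (n = 3 pools). *Scd1* and *Acacb* have 1 far *Mttp-IKO* pool, pool 3, whereas *Gpam*, *Acsl5* and *Agpat3* have tight WT pools that all lie below the *Mttp-IKO* pools.

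In elongation and desaturation, 7 of 10 genes were above 0 and 3 below 0, with a median log2 fold change of 0.37. At an unadjusted p under 0.05, 3 were higher and 0 lower, against 9.53% and 13.5% of all genes. In 4 the *Mttp-IKO* pools all lay above the WT pools, against 14.5% of all genes. *Scd1* (ENSMUSG00000037071, chromosome 19, 44394451 to 44407709), the main stearoyl-CoA desaturase of liver, was at 513, 286 and 227 CPM in WT and at 813, 915 and 4165 CPM in *Mttp-IKO*. All *Mttp-IKO* pools were above all WT pools, and pool 3 stood apart from its own group. The log2 fold change was 2.52 (SE 0.668, edgeR adjusted p = 0.0761), and 1.34 without *Mttp-IKO* pool 3. *Scd2*, its paralog with a wide tissue range, was much less abundant, at 28.2, 19.2 and 21.8 CPM in WT and 28.4, 30.4 and 32.4 CPM in *Mttp-IKO* (log2 fold change 0.40, edgeR adjusted p = 0.226). The highest WT pool and the lowest *Mttp-IKO* pool of *Scd2* almost touched, and reads that matched several genes of this family were not counted.

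Of the elongases among the members, *Elovl5* and *Elovl2*, which act on polyunsaturated chains, had pools that did not overlap between genotypes. *Elovl5* (ENSMUSG00000032349, chromosome 9, 77917364 to 77984519) was at 264, 238 and 270.3 CPM in WT and 351, 374 and 537 CPM in *Mttp-IKO* (log2 fold change 0.71, SE 0.209, edgeR adjusted p = 0.0976). *Elovl2*, which acts on longer polyunsaturated chains, was at 295, 304 and 300.3 CPM in WT and 402, 380.3 and 484.5 CPM in *Mttp-IKO*. Its WT pools lay close together and below all *Mttp-IKO* pools, and the log2 fold change was 0.49 (SE 0.170, edgeR adjusted p = 0.139). *Elovl6*, which extends palmitate to stearate, was at 39.3, 89.1 and 82.8 CPM in WT and 109, 85.0 and 175 CPM in *Mttp-IKO*, with overlap between the genotypes (log2 fold change 0.81, SE 0.361, edgeR adjusted p = 0.230).

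*Elovl1*, an elongase of saturated very long chains, was at 85.3, 73.9 and 88.7 CPM in WT and 81.2, 72.1 and 52.1 CPM in *Mttp-IKO* (log2 fold change -0.27, edgeR adjusted p = 0.442). *Elovl3*, also an elongase of very long chains and expressed at a low level in these livers, had 132, 92 and 82 reads in WT pools and 4, 0 and 116 reads in *Mttp-IKO* pools. The *Mttp-IKO* pools thus split, with pools 1 and 2 almost without reads and pool 3 at 4.87 CPM, above the 2.55 to 3.27 CPM of WT; the 0 reads of pool 2 allow a level of up to 0.103 CPM, counting error only. The log2 fold change was -0.78 (SE 1.24, edgeR adjusted p = 0.744) with all pools, -0.18 without pool 2 and -5.32 (edgeR adjusted p = 0.0193) without *Mttp-IKO* pool 3.

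The front-end desaturases showed less. *Fads2*, the delta-6 desaturase, was at 947, 1034 and 1050 CPM in WT and 751, 853 and 1576 CPM in *Mttp-IKO*, with 2 *Mttp-IKO* pools below and 1 above the WT pools. Its log2 fold change of 0.069 (edgeR adjusted p = 0.913) was -0.11 with scaling by total counts and -0.33 without *Mttp-IKO* pool 3. *Fads1*, the delta-5 desaturase, was at 619, 775 and 684 CPM in WT and 716, 803 and 1128 CPM in *Mttp-IKO* (log2 fold change 0.35, edgeR adjusted p = 0.391). *Fads3*, a relative of both that desaturates sphingoid bases, was at 43.8, 70.7 and 67.97 CPM in WT and 31.3, 42.2 and 53.7 CPM in *Mttp-IKO* (log2 fold change -0.52, edgeR adjusted p = 0.265). The 3 lie side by side on chromosome 19, with 4.49 kb between *Fads3* and *Fads2* and 81.4 kb between *Fads2* and *Fads1*.

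Acyl activation, the joining of fatty acids to coenzyme A, showed log2 fold changes above 0 in 4 of 4 genes (median 0.53). Of these, 2 had an unadjusted p under 0.05, where 9.53% of all genes were higher. *Acsl5* (ENSMUSG00000024981, chromosome 19, 55253369 to 55296627) was at 149.6, 165 and 156 CPM in WT and at 243.5, 202 and 260.5 CPM in *Mttp-IKO*. All *Mttp-IKO* pools exceeded the WT pools, and the log2 fold change was 0.59 (SE 0.166, edgeR adjusted p = 0.0910). *Acsl3*, an isoform known on the endoplasmic reticulum and lipid droplets, was at 12.3, 20.2 and 17.0 CPM in WT and 28.2, 22.3 and 28.7 CPM in *Mttp-IKO*, also without overlap (log2 fold change 0.68, SE 0.214, edgeR adjusted p = 0.113).

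*Acsl1*, the most abundant of the 4 by group means in CPM and in RPKM (CPM per kilobase of transcript), was at 460.0, 650.0 and 625 CPM in WT and 434, 693 and 1278 CPM in *Mttp-IKO*. The *Mttp-IKO* pools lay below, among and above the WT pools, and the log2 fold change of 0.47 (edgeR adjusted p = 0.486) was -0.035 without pool 3. The order per length did not hold in *Mttp-IKO* pool 1, where *Acsl1* was at 44.8 and *Acsl5* at 75.5 RPKM. *Acsl4*, which favours arachidonate, was at 141, 128 and 148.5 CPM in WT and 156, 136 and 229 CPM in *Mttp-IKO* (log2 fold change 0.32, edgeR adjusted p = 0.411). The genotypes of *Acsl4* overlapped by a single pool, and without *Mttp-IKO* pool 3 the log2 fold change was 0.077.

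Glycerolipid assembly was the step most evenly split in direction, with log2 fold changes above 0 in 5 of the 9 tested genes, below 0 in 4, and a median of 0.19. At an unadjusted p under 0.05, 3 were higher and 1 lower, against 9.53% and 13.5% of all genes. *Gpam* (ENSMUSG00000024978, chromosome 19, 55069734 to 55099451), the mitochondrial glycerol-3-phosphate acyltransferase that opens the pathway, was at 207, 219.8 and 217 CPM in WT and at 275, 413 and 354 CPM in *Mttp-IKO*. The WT pools were nearly level and all below the *Mttp-IKO* pools (log2 fold change 0.69, SE 0.192, edgeR adjusted p = 0.0863). *Gpam* lies 154 kb from *Acsl5*.

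Of the acyltransferases that make phosphatidic acid, the 2 members had log2 fold changes of opposite sign, and all 3 among the neighbours (*Agpat1*, *Agpat4* and *Agpat5*) were below 0, at -0.27, -0.81 and -0.25. *Agpat3* (ENSMUSG00000001211, chromosome 10, 78269178 to 78352489) was at 363, 398 and 377 CPM in WT and 524.5, 572 and 573 CPM in *Mttp-IKO* (log2 fold change 0.55, SE 0.161, edgeR adjusted p = 0.0960). *Agpat2*, the isoform whose loss causes congenital lipodystrophy, was at 176, 189 and 190.4 CPM in WT and 149.5, 168 and 96.8 CPM in *Mttp-IKO*. All *Mttp-IKO* pools of *Agpat2* lay below the WT pools, and its log2 fold change was -0.42 (SE 0.220, edgeR adjusted p = 0.294).

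The lipins are phosphatidate phosphatases that make diglyceride, and *Lpin1* is also induced by fasting. *Lpin1* was at 302, 677 and 550.3 CPM in WT and 514, 1107 and 1536 CPM in *Mttp-IKO* (log2 fold change 1.05, SE 0.431, edgeR adjusted p = 0.198). *Mttp-IKO* pool 1 fell among the WT pools, and the values within each genotype spread widely. *Lpin2*, a major isoform in liver, was at 584, 623 and 663 CPM in WT and 438, 545 and 1252 CPM in *Mttp-IKO*; its log2 fold change of 0.26 became -0.34 without pool 3. *Lpin3* stayed near the bottom, at 10.02, 15.8 and 17.0 CPM in WT and 13.6, 11.2 and 11.8 CPM in *Mttp-IKO* (log2 fold change -0.23, edgeR adjusted p = 0.583).

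For the enzymes of the last step, which add the third acyl chain, the pools of the genotypes overlapped. *Dgat2* was at 613, 767 and 665 CPM in WT and 594, 686 and 666 CPM in *Mttp-IKO* (log2 fold change -0.072, SE 0.180, edgeR adjusted p = 0.847). *Dgat1* was at 26.3, 27.4 and 29.6 CPM in WT and 28.2, 34.4 and 32.3 CPM in *Mttp-IKO* (log2 fold change 0.19, SE 0.144, edgeR adjusted p = 0.474). A p above the threshold does not show that the levels were equal.

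*Mogat1* and *Mogat2* encode monoacylglycerol acyltransferases, the second being the enzyme of the enterocyte. *Mogat2* (ENSMUSG00000052396, chromosome 7, 99219084 to 99238619) had 71, 116 and 90 reads in WT and 16, 32 and 19 reads in *Mttp-IKO* pools, that is 1.76, 3.22 and 2.81 CPM against 0.516, 1.097 and 0.797 CPM. All *Mttp-IKO* pools lay below all WT pools, and the log2 fold change was -1.69 (SE 0.389, edgeR adjusted p = 0.0547). It passed with DESeq2 (adjusted p = 0.00206), with scaling by total counts and with a filter on CPM, but not with limma-voom (adjusted p = 0.0738). Of the small-intestine markers, 5 of 10 were tested, 4 of them with log2 fold changes below 0 as for *Mogat2*, and 0 passed. *Vil1* was above 0, at 0.25, and *Apoa4*, among those below 0, was at -0.014. *Fabp2*, the enterocyte fatty acid binding protein, was at 40.2, 36.2 and 31.95 CPM in WT and 30.9, 23.3 and 8.31 CPM in *Mttp-IKO*, all below WT (log2 fold change -0.79, edgeR adjusted p = 0.280). The markers together summed to 1495 to 2694 CPM in WT and 1059 to 3092 CPM in *Mttp-IKO*, most of it *Apoa4*, which liver also makes. Among the untested markers, *Sis* had 19, 2 and 0 reads in WT and 0 in all *Mttp-IKO* pools. *Cdh17* had 8, 0 and 2 reads in WT and 18, 1 and 2 in *Mttp-IKO*, and *Lct*, *Alpi* and *Cdx2* had at most 18 reads in any pool. Their part in the *Mogat2* difference was not tested. *Mogat1* had 5, 20 and 7 reads in WT and 6, 4 and 5 in *Mttp-IKO* pools, too few to be tested.

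Of the 4 regulators and lipid-responsive proteins, 3 had log2 fold changes above 0. At an unadjusted p under 0.05, 2 were higher and 1 lower, against 9.53% and 13.5% of all genes. *Srebf1* (ENSMUSG00000020538, chromosome 11, 60199089 to 60222581), the gene of SREBP-1, was at 179, 171 and 208 CPM in WT and at 114, 124 and 164 CPM in *Mttp-IKO*. All *Mttp-IKO* pools lay below all WT pools (log2 fold change -0.47, SE 0.191, edgeR adjusted p = 0.192), and without *Mttp-IKO* pool 3 the log2 fold change was -0.64 with an adjusted p of 0.0473 (edgeR). Over all pools left out it reached -0.37, without *Mttp-IKO* pool 1, with edgeR adjusted p up to 0.474. Gene counts do not tell SREBP-1a from SREBP-1c, nor the full-length protein from its active fragment. *Mlxipl*, the gene of ChREBP, was at 189.6, 336 and 232 CPM in WT and 244, 251 and 344 CPM in *Mttp-IKO*. The genotypes overlapped, and its log2 fold change of 0.15 (edgeR adjusted p = 0.772) was -0.024 with scaling by total counts.

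*Thrsp* (ENSMUSG00000035686, chromosome 7, 97412938 to 97417730), which encodes Spot 14, a protein that supports lipogenesis and answers to carbohydrate and thyroid hormone, was at 12.9, 66.2 and 43.2 CPM in WT and at 82.9, 228 and 103 CPM in *Mttp-IKO*. Every *Mttp-IKO* pool exceeded every WT pool, and both groups ran over a wide range (log2 fold change 1.76, SE 0.589, edgeR adjusted p = 0.132). *Pnpla3* (ENSMUSG00000041653, chromosome 15, 84167816 to 84189512), a lipid droplet protein and a known SREBP-1c target, was at 1.19, 1.53 and 0.906 CPM in WT and 3.45, 2.98 and 2.01 CPM in *Mttp-IKO*. No pools overlapped, at a level close to the lowest among the members (log2 fold change 1.22, SE 0.330, edgeR adjusted p = 0.0809). Without *Mttp-IKO* pool 3 its adjusted p was 0.0483 (edgeR), and over all pools left out it ran up to 0.2996.

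Genes around the 36 members, 73 in all and listed by their role in the same pathways, gave 2 higher and 2 lower at an adjusted p under 0.05 among the 72 tested (edgeR), beside 0.920% and 3.09% of all genes, with a median log2 fold change of 0.078. At an unadjusted p under 0.05, 8 were higher and 7 lower, beside 9.53% and 13.5% of all genes. The counts over both directions were thus near those of all genes. The 2 that rose belong to the machinery that holds and releases the SREBPs. *Insig2*, which retains the SREBPs in the endoplasmic reticulum, was at 96.4, 91.6 and 98.0 CPM in WT and 233, 276 and 307 CPM in *Mttp-IKO*, with a wide gap between the genotypes (log2 fold change 1.51, SE 0.169, edgeR adjusted p = 0.0132). *Srebf2*, the gene of SREBP-2, which mainly drives cholesterol synthesis, rose from 93.8, 143 and 114 CPM in WT to 203, 238 and 223 CPM in *Mttp-IKO* (log2 fold change 0.92, edgeR adjusted p = 0.0446).

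Of the same machinery, *Scap* and *Insig1* had log2 fold changes above 0 that did not pass. *Scap*, the escort of the SREBPs, was at 98.0, 120.1 and 99.4 CPM in WT and 142, 164 and 250 CPM in *Mttp-IKO* (log2 fold change 0.81, edgeR adjusted p = 0.0948). *Insig1* was at 120.4, 252 and 177 CPM in WT and 298.5, 361 and 291 CPM in *Mttp-IKO* (log2 fold change 0.79, edgeR adjusted p = 0.138). In both, all *Mttp-IKO* pools were above all WT pools.

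**Figure D3:**
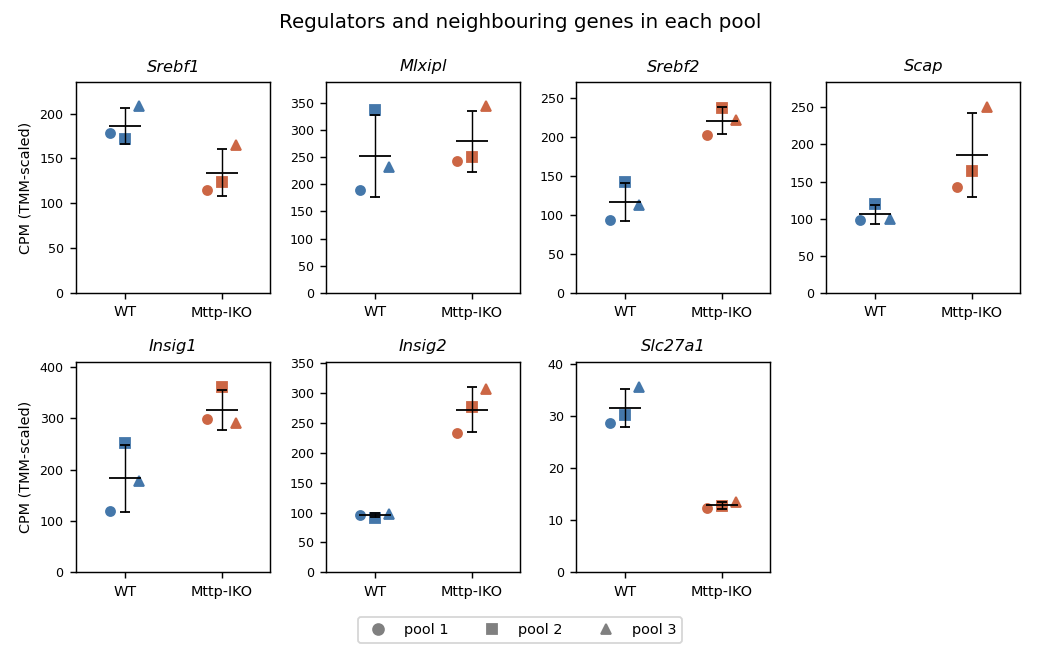
CPM (y axis, linear from 0, TMM-scaled) in each WT pool (blue) and *Mttp-IKO* pool (orange) of *Srebf1*, *Mlxipl* and 5 neighbouring genes, with symbols for the pool number and black bars for the mean ± SD (n = 3 pools). *Insig2* and *Slc27a1* show the cleanest gaps between genotypes, *Srebf1* lies lower and *Srebf2* higher in *Mttp-IKO*, and *Mlxipl* overlaps.

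The 2 neighbours that fell were *Slc27a1*, a fatty acid transport protein best known from muscle and fat, and *Acss1*, the mitochondrial acetyl-CoA synthetase. *Slc27a1* was at 28.7, 30.3 and 35.6 CPM in WT and 12.4, 12.7 and 13.6 CPM in *Mttp-IKO* (log2 fold change -1.29, SE 0.153, edgeR adjusted p = 0.0151). *Acss1* was at 3.12, 3.47 and 2.53 CPM in WT and 0.580, 1.03 and 0.168 CPM in *Mttp-IKO* (log2 fold change -2.33, SE 0.518, edgeR adjusted p = 0.0496). Its cytosolic counterpart *Acss2*, given above, had a log2 fold change of the other sign. All 4 calls were lost when WT pool 1, WT pool 3 or *Mttp-IKO* pool 2 was left out, without *Mttp-IKO* pool 1 the one left was *Insig2*, and without WT pool 2 *Acss1* did not pass.

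No other neighbour was called by edgeR, while DESeq2 called 9, *Tecr*, *Slc27a5*, *Scap* and *Insig1* among them. Of the 9, 7 were higher and 2 lower, where DESeq2 called 3.81% and 7.75% of all genes (11.6% in either direction). The count of 9 among the 72 neighbours tested was thus near the share of all genes. Glycolysis and NADPH supply had 8 genes above and 10 below 0. *Taldo1*, of the pentose phosphate path, had a log2 fold change of -0.65. Among the partners of elongation and desaturation, *Elovl4* had 0.90 and *Tecr*, the last enzyme of the elongation cycle, had 0.65 (edgeR adjusted p = 0.0854). *Mid1ip1*, which promotes the polymerization of acetyl-CoA carboxylase, had 0.77, and *Aacs*, an acetoacetyl-CoA synthetase, had 0.60. *Slc27a5*, the liver fatty acid transport protein, had 1.01 (edgeR adjusted p = 0.109), *Acot1*, an acyl-CoA thioesterase, -0.58, *Agpat4* -0.81 and *Plpp1* 0.40.

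Levels of different genes were compared per transcript length, as RPKM. The order by the WT mean began with *Fads2* (712 ± 20.1 RPKM, SD, n = 3 pools), *Dgat2* (321 ± 24.2) and *Fads1* (212.5 ± 15.3), and the step from each to the next exceeded the SDs. It ended with *Pnpla3* (0.276 ± 0.0655) and *Mogat1* (0.200 ± 0.145), which did not differ beyond their spread. In *Mttp-IKO* pools *Scd1* had the second highest mean of the members (382 ± 373 RPKM), a value set by pool 3, at 812 RPKM against 164 and 169.8 RPKM in pools 1 and 2.

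**Figure D4:**
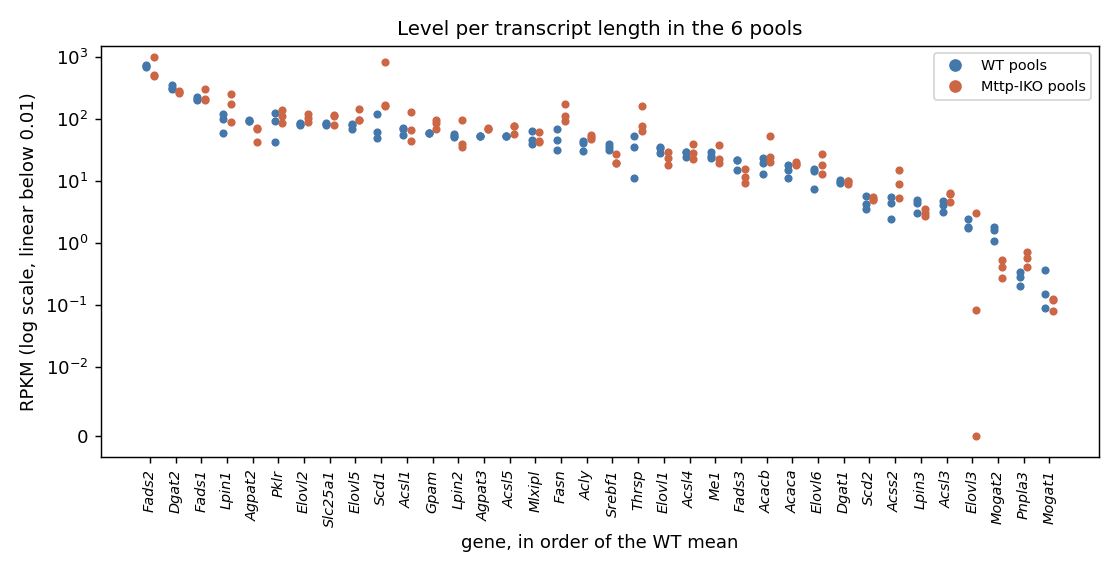
RPKM as deposited (y axis, log scale, linear below 0.01) of the 36 members in the 3 WT pools (blue) and the 3 *Mttp-IKO* pools (orange), in the order of the WT mean. The levels run from *Fads2* at 712 RPKM to *Mogat1* at 0.200 RPKM, and *Elovl3* and *Scd1* show the widest split among the *Mttp-IKO* pools.

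Within pairs of isoforms, the balance was read from the log2 ratio of RPKM in each pool, as a description. *Scd1* exceeded *Scd2* in all pools, 20.5-, 16.9- and 11.8-fold in WT and 32.3-, 34.0- and 145-fold in *Mttp-IKO*. *Dgat2* exceeded *Dgat1* 31.6-, 38.0- and 30.4-fold in WT and 28.6-, 27.1- and 28.0-fold in *Mttp-IKO*. The first pair moved apart and the second drew slightly together, in both cases without overlap of the pools.

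*Acaca* and *Acacb* were near parity, with a log2 ratio of -0.33 ± 0.0783 in WT and -0.64 ± 0.782 in *Mttp-IKO* pools, where pool 3 was at -1.51. For *Lpin1* over *Lpin2* the log2 ratio was 0.73 ± 0.543 in WT and 1.61 ± 0.440 in *Mttp-IKO*, without overlap of the pools. For *Srebf1* over *Mlxipl* it was -0.48 ± 0.494 in WT and -1.13 ± 0.0363 in *Mttp-IKO*, and WT pool 2, at -1.04, lay close to the *Mttp-IKO* pools. *Fads1* over *Fads2* gave -1.75 ± 0.116 and -1.41 ± 0.234, *Elovl5* over *Elovl6* 2.71 ± 0.700 and 2.57 ± 0.282, and *Mogat1* over *Mogat2* -3.11 ± 0.708 and -1.88 ± 0.809, all 3 with overlapping pools.

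Many members also ranked the pools of one genotype in the same order. Among the 35 tested members, WT pool 1 was the lowest WT pool in 27, where 36.8% of all genes tested had their lowest WT value, and WT pool 2 was the highest in 23, against 37.7% of all genes. WT pool 1 also had the lowest hepatocyte marker sum of the WT pools, and WT pool 2 the highest. *Mttp-IKO* pool 3 was the highest *Mttp-IKO* pool in 21 members, against 40.9% of all genes, and pool 2 in 11, against 28.5%. The hepatocyte marker sums of *Mttp-IKO* pools 1, 2 and 3 were 135400, 177600 and 130200 CPM, so pool 3 had the lowest. Albumin (*Alb*) made up most of these sums, at 97240, 132200 and 84790 CPM. By single markers, *Apob*, *Serpina1c*, *Cps1*, *Hnf4a*, *Cyp2e1* and *Tat* were each highest in *Mttp-IKO* pool 3. *Alb*, *Apoa1* and *Ttr* were highest in pool 2, and *Asgr1* in pool 1. The part of hepatocyte content in the order of the pools was not tested.

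*Mttp-IKO* pool 3 also differed from the other pools in how its counts depended on transcript length, with a log2 trend from -0.36 at 1000 nt to 0.13 at 8000 nt. Among the members this trend was 0.16 at *Fasn*, 0.026 at *Scd1* and -0.34 at *Thrsp*, whose log2 fold changes were 1.54, 2.52 and 1.76. For *Fads2* it was -0.31 beside a log2 fold change of 0.069, for *Dgat2* -0.18 beside -0.072 and for *Lpin2* 0.19 beside 0.26. With the trend removed in all pools, the median of the members was 0.58, and 28 were above 0. The median over all genes tested was then 0.13, a shift of 0.12, so the members did not gain on the other genes.

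**Figure D5:**
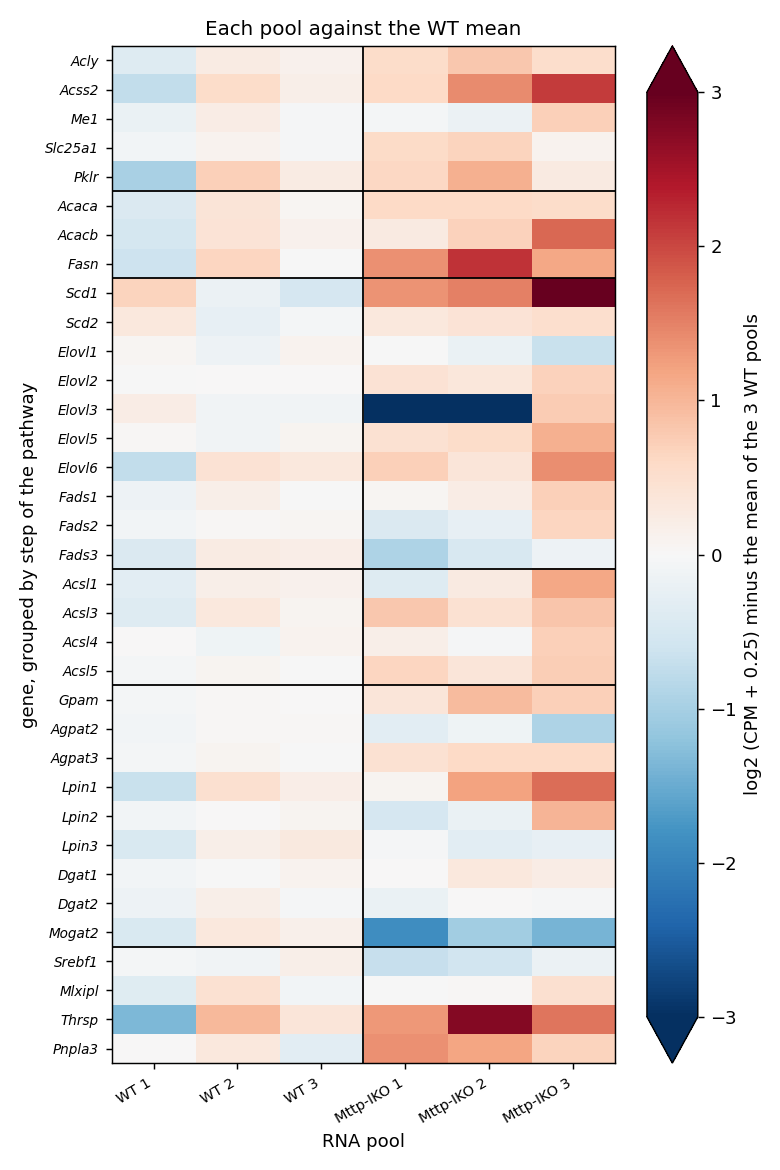
Log2 of CPM + 0.25 in each pool minus the mean of the 3 WT pools (colour, limited to -3 and 3) for the 35 tested members, in rows by step with lines between steps; columns are the 6 pools. WT pool 1 is pale blue in most rows, *Mttp-IKO* pool 3 is the reddest column, and *Elovl3* is blue in *Mttp-IKO* pools 1 and 2.

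In the genome the members lie on 17 chromosomes, with 8 of the 36 on chromosome 19: *Fads1*, *Fads2*, *Fads3*, *Scd1*, *Scd2*, *Elovl3*, *Gpam* and *Acsl5*. *Scd1* and *Scd2* are 87.6 kb apart, and on chromosome 7 *Dgat2* and *Mogat2* are 36.4 kb apart. The log2 fold changes were 2.52 and 0.40 for the first pair, -0.072 and -1.69 for the second, and 0.69 and 0.59 for *Gpam* and *Acsl5*.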

How the data were processed

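Liver RNA of MCD-fed mice was sequenced as 3 WT and 3 *Mttp-IKO* pools, grouped by the labels' titles; pools, not mice, are the replicates, and pools vary less than mice would. Libraries were depleted of ribosomal RNA. The authors deposited, for each pool, raw read counts per gene, made by STAR 2.5.1a alignment to the Ensembl release 76 assembly (GRCm38) and featureCounts 1.4.6-p5 on uniquely aligned, unambiguous reads; use of strand is not given in the sources used here. The same deposited files hold CPM, relative to the pool's total count, and RPKM, which is CPM per kilobase of gene length. A deposited table of all pools with symbols holds 40481 of the 41388 genes at equal counts; 276 repeated lines in it were left out.

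Genes were kept by edgeR's filterByExpr (minimum count 10, minimum total 15), leaving 17287, and compared in R 4.3.3 with glmQLFit and glmQLFTest of edgeR 4.0.16 (TMM factors 0.898 to 1.11), adjusting p over all of them by Benjamini-Hochberg. The sources used here name no test for differential expression, so this was the choice made here. Standard errors are the log2 fold change over the root of the quasi-F statistic and approximate. Exact permutation of 3 pools against 3 cannot go below p = 0.1. A count of 3 reads is 0.0744 to 0.126 CPM, which covers counting error only. Different pools were never alike within sampling noise.

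The members and lists were chosen with earlier results of these data known. All 36 members are named; of the 73 neighbours, those called and otherwise the 2 per list with the largest absolute log2 fold change at an average log2 CPM of at least 1; cell markers where they bear on a member. One gene that this rule names is not reported here. Markers of adipocytes, striated muscle, small intestine, hepatocytes, stellate cells and macrophages are reported beside the results. Endothelial markers summed to 468 to 513 CPM in WT and 451 to 509 CPM in *Mttp-IKO* pools, and cholangiocyte markers to 99.8 to 232 and 79.8 to 133 CPM. Alternatives were other scalings, filters, tools and thresholds, protein-coding genes only, removal of each pool's loess trend with length (span 0.3), the replicate number as a block, and leaving out each pool. Promoter windows are RefSeq's (GRCm38.p6), and exon overlap was taken from GENCODE M21.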

Additional observations from a re-analysis of the deposited data

How the results depend on the processing

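Of the 35 tested members, 29 kept their direction under all 17 alternatives, which say nothing of the pools' biological spread; depth limits chiefly *Mogat1*, *Mogat2*, *Elovl3* and *Pnpla3*. The median log2 fold change of the members ran from 0.29 (total counts) to 0.59. The count of members called, 0 in the main analysis, was 1 with total counts (*Mogat2*), 11 with DESeq2, 3 without a filter (*Fasn*, *Scd1*, *Mogat2*), 1 with a CPM filter (*Mogat2*), 2 with the length trend removed (*Acsl5*, *Gpam*), 8 at a threshold of 0.10 and 0 to 4 with each pool left out, 4 of them without *Mttp-IKO* pool 3 (*Slc25a1*, *Elovl3*, *Srebf1*, *Pnpla3*) and 1 without WT pool 2 (*Fasn*). Same-numbered pools deviated together by r = 0.139, 0.112 and 0.00698, so the numbers were not taken to pair the pools; with the replicate number as a block 4 members were called (*Acss2*, *Fasn*, *Mogat2*, *Thrsp*) and 592 genes, and with the block and the length trend removed 5 members. All genes called were 694 in the main analysis, 1995 with DESeq2, 428 with limma-voom, 1658 at a threshold of 0.10, and 0 to 892 with each pool left out: 24 without WT pool 1, 892 without WT pool 2, 21 without WT pool 3, 55 without *Mttp-IKO* pool 1, 0 without pool 2 (3221 at an unadjusted p under 0.05) and 864 without pool 3. Over all genes, the count called was 1019 with total counts, 990 without a filter and 719 with a CPM filter. Neighbours called were 9 with DESeq2, which called 11.6% of all genes, and 0 to 6 with each pool left out. The split of higher against lower calls was 159 to 535 in the main analysis, 112 to 907 with total counts, 657 to 1338 with DESeq2 and 387 to 505 with the length trend removed; total counts moved the median of all genes by -0.18 and the length trend by 0.12. Log2 fold changes that changed sign were *Fads2* (-0.11 with total counts, -0.0023 with limma-voom, -0.011 with the block, -0.33 to 0.26 with each pool left out), *Mlxipl* (-0.024 with total counts, -0.048 to 0.38), *Dgat2* (0.087 with the length trend removed, 0.088 with the block as well, -0.16 to 0.0011), *Me1* (-0.13 to 0.36), *Acsl1* (-0.035 to 0.77) and *Lpin2* (-0.34 to 0.53), the ranges again being over pools left out. Members whose pools did not overlap numbered 17 in the main scaling (14 higher, 3 lower), where 14.5% and 16.5% of all genes did so. With total counts they numbered 15 (11 higher, 4 lower), and the share of all genes was not taken at that scaling. The cause of these shifts was not tested.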
